A study of Mus musculus with 10 samples.

Results

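Open chromatin of neural progenitors (NSC) and embryonic fibroblasts (MEF) of the mouse was compared through the site lists that FAIRE-seq gave for these cell types. All sites on the 19 autosomes were taken, 551649 of NSC and 424647 of MEF, or 976296 of the 1816946 sites of the 4 lists in the series. The main values were computed with and without a segment of chromosome 14, from 86000001 to just before 121000001 on build mm9, in which NSC sites were dense. Without it 533283 NSC and 419706 MEF sites remained, and values are without it unless stated. The NSC, progenitors that had been obtained from ES cells, grew in N2B27 medium with FGF-2 and EGF at 10 ng/ml each. The MEF came from embryos at E16.5 and were grown in DMEM with 10% FBS. The labels name no treatment, genotype or strain for either, and do not say how many embryos or cell lines were used. Each cell type had 2 samples, of which 1 list, filed with replicate 2, was used. No difference between the cell types therefore has a replicate check and none was tested. For the MEF samples 1 label speaks of NSC chromatin, while the title and the cell type name fibroblasts. Marker genes could not be looked up to check the labels, since genes could not be placed on mm9.

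FAIRE fixes cells with formaldehyde, breaks the chromatin up and shakes it with phenol. DNA with few nucleosomes on it stays in the water phase and is read out by sequencing, and it marks promoters, enhancers and other regulatory elements. Promoters of genes used by every cell tend to be open in many cell types, whereas enhancers are largely particular to a lineage. Neural progenitors of this kind divide in response to FGF-2 and EGF and rely on transcription factors such as SOX2 and PAX6. Fibroblasts are mesenchymal cells that produce extracellular matrix, with factors such as TWIST1 and PRRX1. The comparison thus sets an ectodermal against a mostly mesodermal cell type, neither of them pluripotent.

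The NSC list was the longer one and its sites lay closer together. Without the chromosome 14 segment NSC had 219 sites per Mb and MEF 172, with median gaps between neighbours of 1539 and 2495 bp. Median widths were similar, 332 bp in NSC (quartiles 227 and 506) and 324 bp in MEF (227 and 464). The lists differed more in their widest sites: 6800 NSC sites (1.28%) and 1175 MEF sites (0.280%) measured 2 kb or more. NSC sites covered 9.69% of the autosomal sequence and MEF sites 6.72%. Read depth is unknown and a deeper library can give a longer list, so these numbers describe the lists and not the cells alone.

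Most sites of either cell type had no counterpart in the other. Of the NSC sites 31.0% (165182 sites, exact 95% interval 30.9 to 31.1) overlapped a MEF site by at least 1 bp, and of the MEF sites 40.2% (168806 sites, 40.1 to 40.4) overlapped an NSC site. With the segment these shares were 30.5% and 40.6%. The 2 lists had 54.0 Mb in common, which was 22.9% of the bases of NSC, 33.0% of those of MEF and 15.6% of the bases of either. The NSC list was also the longer one, and whether its length accounts for the higher share on the MEF side was not tested. With NSC cut to its highest-scoring sites at the length of the MEF list, and with the segment, the shares were 32.4% for NSC and 34.0% for MEF. This cut changes the scores of the NSC list as well as its length. By autosome, the shared part ran from 27.9% (chromosome 12) to 35.5% (chromosome 11) of NSC sites. For MEF sites it ran from 33.5% (chromosome 14) to 44.9% (chromosome 7). With the segment, chromosome 14 had 23.3% of its NSC sites and 44.3% of its MEF sites shared.

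Shared sites were wider than the rest. The median width was 422 bp for NSC sites with MEF overlap and 304 bp for those without, and 377 and 296 bp for MEF sites with and without NSC overlap. Sites of 1 kb or more made up 14.3% of the shared and 2.99% of the unshared NSC sites, and 6.67% and 1.20% in MEF. When each list was ordered by width, the shared part was 19.2% among the narrowest 10% of NSC sites and 62.5% among the widest 10%, and in MEF 27.8% and 69.0%. Among sites of 2 kb or more it reached 81.2% in NSC (95% interval 80.2 to 82.1) and 89.2% in MEF (87.3 to 90.9). A wide site also has more bases in which an overlap can fall.

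The score that the authors gave each site, of no stated unit and read here only within its own list, set shared sites apart less than width did. In NSC the median score was 4.60 for shared and 3.62 for unshared sites, a ratio of 1.27. In MEF the medians were 3.55 and 3.17, a ratio of 1.12. Among sites 250 to 350 bp wide the ratios came down to 1.12 in NSC and 1.04 in MEF. Sharing was 23.8% among the 10% of NSC sites with the lowest scores and 45.5% among the 10% with the highest. In MEF it was 37.5% and 53.4% in these 2 parts, with a low of 34.9% in between. At a fixed width the range was narrower, 19.6% to 30.7% for NSC sites and 30.7% to 37.8% for MEF sites. A high score was no guarantee of sharing: of the 1000 highest-scoring sites 49.5% of NSC (46.4 to 52.7) and 53.5% of MEF (50.4 to 56.6) had an overlap. Of the 100 highest, 57.0% did so in NSC (46.7 to 66.9) and 37.0% in MEF (27.6 to 47.2).

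**Figure D1:**
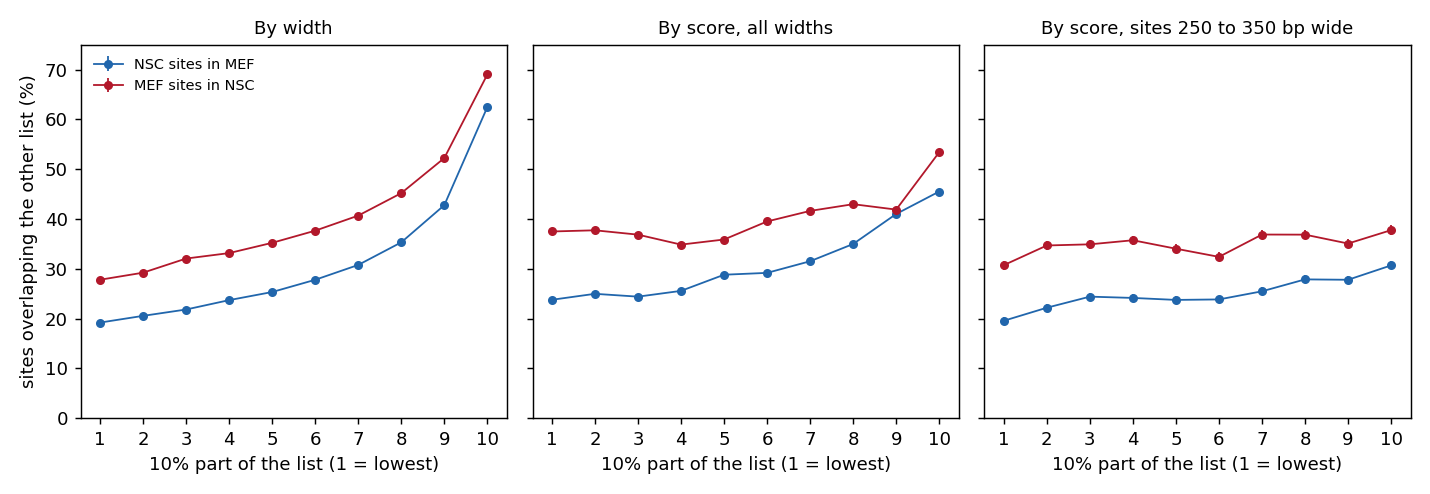
Share of NSC sites that overlap MEF (blue) and of MEF sites that overlap NSC (red), in percent, for successive 10% parts of each list by width, by score, and by score among sites 250 to 350 bp wide, without the chromosome 14 segment. Bars are exact 95% intervals, mostly smaller than the points. Sharing goes from 19.2% to 62.5% (NSC) and from 27.8% to 69.0% (MEF) with width, and changes much less with score at a fixed width.

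Where both cell types were open, the sites often coincided closely. There were 180297 overlapping pairs, of which 132883 (73.7%) joined a single NSC site to a single MEF site. In these the median overlap was 233 bp, or 96.5% of the shorter site at the median. Midpoints lay a median of 114.5 bp apart, and 45.1% lay within 100 bp. The MEF site lay wholly inside the NSC site in 27.3% of pairs, the NSC site inside the MEF site in 17.5%, and 55.3% overlapped in part. NSC sites were the wider partner in 57.3% of pairs. Sites that were strong in one cell type were not reliably strong in the other. Spearman correlations across the pairs, which share a genome build and lie along the same chromosomes, were 0.33 for score and 0.22 for width. Of the pairs in the top 10% of NSC scores 24.7% were also in the top 10% of MEF scores, where unrelated scores would give about 10%. A further 13259 NSC sites spanned 2 or more MEF sites, up to 8, and 10916 MEF sites spanned 2 or more NSC sites, up to 6.

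Sites without a counterpart mostly lay within a few kb of a site of the other cell type. The lists were dense, with 219 NSC and 172 MEF sites per Mb. Distances from random positions were not computed, so these values are not a trait of unshared sites. The median distance from an unshared NSC site to the nearest MEF site was 1551 bp, and from an unshared MEF site to the nearest NSC site 1470 bp. Within 1 kb lay 37.3% of the former and 39.8% of the latter, and within 5 kb 83.9% and 80.3%. Isolated sites were few: 385 NSC sites (0.105%) and 877 MEF sites (0.350%) lay more than 50 kb from the other list. Shared sites also stood next to each other. The next site along the chromosome was shared after 39.4% of shared and 27.2% of unshared NSC sites, and after 53.1% of shared and 31.6% of unshared MEF sites. The numbers of both lists in 100-kb windows rose together (Spearman correlation 0.68), and what this adds to sharing was not tested. Sharing was higher where sites of the same list were dense. Among the 20% of MEF sites in the sparsest windows (1 to 14 MEF sites per 100 kb) it was 27.5%, and among the 20% in the densest (33 to 81) it was 49.5%. For NSC (1 to 20, and 48 to 94 sites per 100 kb) it was 25.9% and 34.5%.

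**Figure D2:**
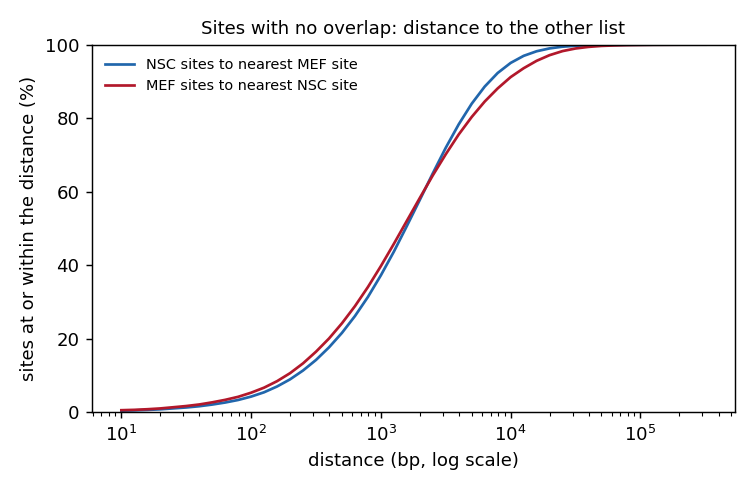
Cumulative share, in percent, of NSC sites without MEF overlap (blue) and MEF sites without NSC overlap (red) at or within a given distance in bp (log scale) of the nearest site of the other list, without the chromosome 14 segment. The curves cross, with more MEF sites within 1 kb (39.8% against 37.3%) and more NSC sites within 5 kb (83.9% against 80.3%).

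The lists of the 2 pluripotent cell types of the series were then looked up at these sites. ESC were E14 cells in N2/B27 medium with LIF and inhibitors of MEK and GSK3, a ground-state culture. EpiSC were epiblast stem cells of the E3 line, primed cells expanded on feeder MEF and then grown feeder-free with FGF-2. Of all NSC sites 38.3% lay in ESC or EpiSC, and of all MEF sites 37.3%. Sites common to NSC and MEF were open there more often: 51.8% of the shared NSC sites (51.6 to 52.0) lay in ESC or EpiSC, and 26.1% in both. Of the shared MEF sites 51.2% did so, with 25.7% in both. Sites of a single somatic cell type were mostly absent from both pluripotent lists. Of the NSC sites without MEF overlap 32.2% (32.0 to 32.3) lay in ESC or EpiSC, and of the MEF sites without NSC overlap 28.0% (27.8 to 28.1). With all 4 lists at equal length and with the segment, these last shares were both 28.0%, so the lead of NSC was not seen at equal length. EpiSC alone held slightly more of them than ESC alone, 11.4% against 10.8% in NSC and 10.2% against 9.48% in MEF. Shared sites are wider, and among sites 250 to 350 bp wide the contrast was smaller. There 38.9% of the shared and 28.0% of the unshared NSC sites lay in ESC or EpiSC, and 42.8% and 25.5% in MEF.

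Read the other way, the more pluripotent lists held a site, the more often NSC and MEF shared it. NSC sites found in neither pluripotent list overlapped MEF in 24.2% of cases, those in 1 of them in 34.2% and those in both in 53.9%. For MEF sites in NSC these shares were 31.3%, 46.7% and 67.5%. Among sites 250 to 350 bp wide the order was the same, with 22.0%, 29.0% and 38.0% in NSC and 29.2%, 42.5% and 57.3% in MEF.

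**Figure D3:**
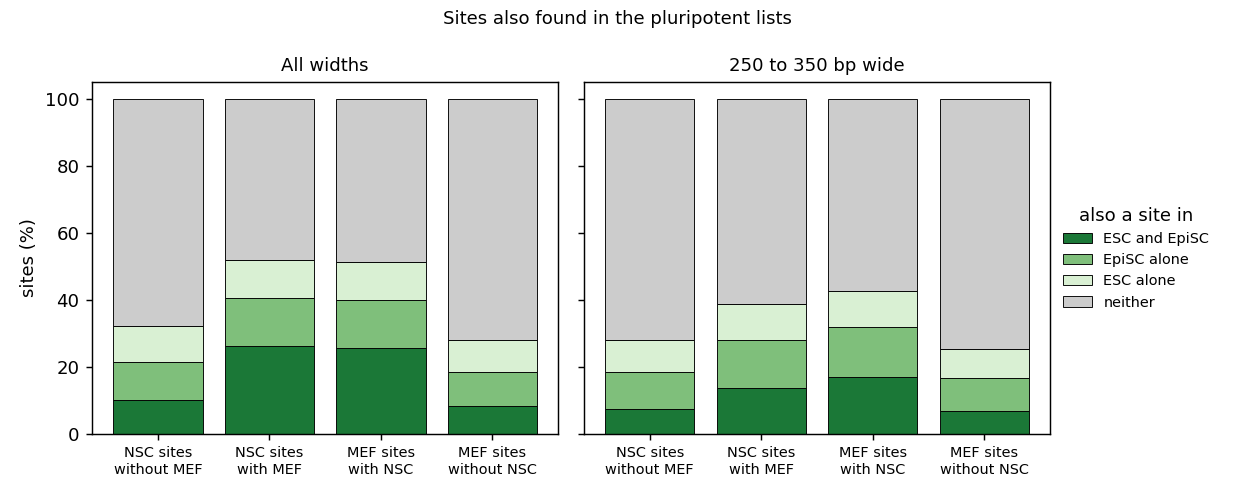
Share, in percent, of NSC and MEF sites with and without overlap in the other list that also lie in both pluripotent lists, in EpiSC alone, in ESC alone or in neither, for all widths (left) and for sites 250 to 350 bp wide (right), without the chromosome 14 segment. In neither pluripotent list lie 67.8% of the NSC sites without MEF overlap and 72.0% of the MEF sites without NSC overlap, against 48.2% and 48.8% of the shared ones.

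On a broader scale, the numbers of sites in 100-kb windows were compared. Across 24381 windows outside the segment the Spearman correlation of NSC and MEF numbers was 0.68, where windows share sequence and mappability and are not replicates. Of the 21667 windows with 10 or more sites of both lists together, 74.1% lay within 2-fold of each other after each list was scaled to its autosomal total. With 0.5 added to each number, 192 windows (0.886%) were at least 4-fold denser in NSC and 1092 (5.04%) at least 4-fold denser in MEF. With the segment these were 286 (1.30%) and 1120 (5.09%), and without scaling 547 and 647. NSC windows thus made up 20.3% of the called windows with scaling and 45.8% without it.

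Windows called in either direction were sparser in ESC and EpiSC, at the median, than all windows compared. A low number in the other somatic list follows from the call itself. The windows denser in MEF had medians of 19 MEF, 4 NSC, 4 ESC and 9 EpiSC sites. Over all windows compared these were 17, 22, 14 and 16. The 192 windows denser in NSC had a median of 36 NSC and 5 MEF sites, with 6.5 in ESC and 10 in EpiSC. MEF sites were spread more evenly over the genome: the sparsest 50% of windows of each list held 25.2% of MEF and 19.1% of NSC sites, and the densest 10% held 22.6% and 24.9%. In the 20% of windows with the fewest sites (10 to 22 of both lists) medians were 6 NSC and 9 MEF sites. In the 20% with the most (63 to 151) they were 46 and 31. The sparsest 20% held 530 of the MEF calls and 42 of the NSC calls, the densest 20% 14 and 24. Where 30 or more sites per window were required, with the segment, 221 of 15014 windows (1.47%) were called for NSC and 348 (2.32%) for MEF.

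**Figure D4:**
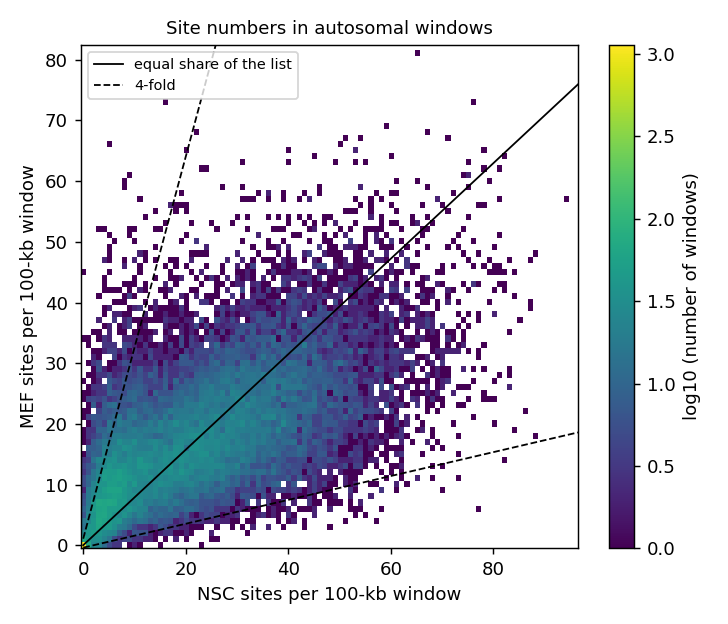
Number of NSC sites (x) and MEF sites (y) in autosomal 100-kb windows without the chromosome 14 segment, with the colour giving log10 of the number of windows at each pair of values. The solid line marks an equal share of both lists and the dashed lines a 4-fold difference. More windows lie beyond the upper dashed line (1092 denser in MEF) than beyond the lower one (192 denser in NSC), counting those with 10 or more sites.

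Windows that were busy in one cell type and empty in the other were rare. Of the 24381 windows outside the segment, 17 held 5 or more NSC sites and no MEF site. Another 59 held 5 or more MEF sites and no NSC site, at least 8 of them beyond the segment on chromosome 14. The first of the 17 was chr8:22100001-22200000 with 23 NSC, 12 ESC and 4 EpiSC sites. The window before it had 25 NSC and 1 MEF site, and beyond this pair the next 3 windows on either side held no NSC or MEF site. Next came chr10:22100001-22200000 with 15 NSC sites, where the 2 windows before it held 14 and 21 NSC sites against 1 and 3 in MEF. The others were chr7:54900001-55000000 with 11 NSC sites, chr6:130700001-130800000 with 10 and none in ESC or EpiSC, and chr12:115700001-115800000 with 10.

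The chromosome 7 window borders on a place where the cell types changed over. In the window just before it, from 54800001 to 54900000, there were 24 MEF sites and 1 NSC site. In the pair of windows from 54900001 to 55100000 there were 11 and 9 NSC sites and no MEF site. ESC and EpiSC had at most 2 sites in any of these windows. Of the 5 highest-scoring MEF sites without NSC overlap, 3 lay there within 27318 bp, at chr7:54839015-54841205 (score 27.3), chr7:54861673-54861883 (30.7) and chr7:54864967-54866332 (27.2).

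Among windows with MEF sites and no NSC site, chr15:96800001-96900000 led with 45 MEF sites, and it was also busy in ESC (48) and EpiSC (33). It was thus the NSC list that stood apart there. The windows on either side had 11 and 3 NSC sites against 17 and 29 in MEF. A run of 55 consecutive MEF sites with no NSC site among them extended from 96800410 to 96937197, in which ESC had 64 and EpiSC 46 sites. By contrast chr8:15400001-15500000, with 27 MEF sites and no NSC site, had 1 ESC and 10 EpiSC sites. The other 3 windows named by the rule all lay at the far end of chromosome 14.

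Neighbouring windows that were each 4-fold denser were joined into stretches, 701 in MEF and 153 in NSC when single windows are counted. Of these, 85 in MEF and 8 in NSC had 3 or more windows. MEF also had more called windows to join, 1092 against 192, and that difference depends on the scaling. The longest was chr2:16000001-17000000, 10 windows that held 295 MEF sites (13 to 51 per window) and 45 NSC sites (1 to 9). ESC had 33 and EpiSC 85 sites in it. The stretches of NSC had at most 4 windows, and they differed in the pluripotent lists. On chr18:86200001-86600000 there were 154 NSC and 20 MEF sites, with 9 in ESC and 15 in EpiSC. On chr18:85700001-86000000 there were 120 and 14, with 6 in ESC and 10 in EpiSC. On chr4:139400001-139800000 there were 89 NSC and 12 MEF sites, with more in ESC (174) and EpiSC (141) than in either. On chr3:105200001-105500000 there were 168 NSC and 23 MEF sites, with 67 in ESC and 56 in EpiSC. These stretches were picked out after the values were seen.

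Runs of consecutive sites of a single cell type were listed at finer scale. The longest NSC run outside the segment, chr8:56088385-56146265, had 48 sites over 57881 bp with no MEF site among them. It covered 33.6% of its length, its median score of 8.82 was 2.23 times the NSC median, and ESC and EpiSC had 2 and 1 sites in it. The 3 windows from 55900001 to 56200000 held 45, 63 and 57 NSC sites, and the next one none. That next window was nearly empty in the other lists too, with 2 MEF, 2 ESC and 1 EpiSC site, and the 2 after it held no site of any list. Runs of 44 NSC sites followed on chr3:105390955-105474522, where ESC had 13 and EpiSC 17 sites, and on chr8:22062434-22159463. In MEF the 3 longest runs (70, 60 and 58 sites) lay at the end of chromosome 14. With chromosome 14 set aside, which was decided on seeing these values, the run on chromosome 15 came first. It was followed by 48 sites on chr3:54236677-54339882, with 7 ESC and 10 EpiSC sites, and 48 on chr5:119884664-120224493, where ESC had 193 and EpiSC 105. Long runs were exceptions. Runs of 10 or more sites held 5.32% of the unshared NSC sites and 5.08% of the unshared MEF sites, and 50.8% and 63.3% of runs were single sites.

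Windows rich in both cell types were also named by the rule. At chr11:16700001-16800000 there were 76 NSC and 73 MEF sites, with 25 each in ESC and EpiSC. At chr7:75200001-75300000 there were 67 and 68, and this window was busy in ESC (51) and EpiSC (41) too. At chr4:63700001-63800000 there were 78 NSC and 65 MEF sites, with 3 in ESC and 13 in EpiSC. On chromosome 9 the windows from 41300001 and 41400001 had 65 and 71 NSC sites and 81 and 67 MEF sites. They stood within a stretch from 41000001 to 41800000 in which every window held 52 or more NSC and 35 or more MEF sites. Windows further out were not looked up. In the stretch ESC had 11 to 41 and EpiSC 18 to 32 sites per window.

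Single sites of high score were found on both sides of the comparison. The first of the NSC sites without MEF overlap were chr15:92265091-92265218 (128 bp, score 38.7), chr6:29738719-29739908 (1190 bp, 37.1), chr15:40538104-40538362 (259 bp, 37.0), chr9:5633715-5634613 (899 bp, 36.3) and chr1:77631263-77631592 (330 bp, 34.9). These scores are 8.83 to 9.79 times the NSC median. All except the site at 40538104 also lay in EpiSC, and none lay in ESC. The nearest MEF site was 485 bp away for the site on chromosome 9 and 8455 bp away for the first one. In MEF, beside the 3 sites on chromosome 7 given above, they were chr4:149131438-149131499 (62 bp, 35.0) and chr7:66931918-66931974 (57 bp, 34.8), the latter 31371 bp from the nearest NSC site.

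The strongest sites shared by both lists, by the sum of their percentiles, included a pair that neither pluripotent list held. At chr4:13444106-13444513 an NSC site of score 36.4 lay wholly within a MEF site of 980 bp and score 21.1. At chr4:59109302-59109806 (38.3 in NSC) the MEF site of score 20.3 again enclosed that of NSC, and ESC and EpiSC had sites too. At chr4:116861829-116863269 and chr4:120487625-120490886 it was the NSC site, of 1441 and 3262 bp, that enclosed the MEF site, of 406 and 789 bp, and both places were also open in ESC and EpiSC. At chr5:5319253-5321529 an NSC site of 2277 bp enclosed a MEF site of 508 bp, and EpiSC but not ESC had a site.

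The chromosome 14 segment stood apart through its NSC sites. It held 18366 NSC and 4941 MEF sites, or 525 and 141 per Mb. NSC sites covered 32.2% of it and MEF sites 4.70%, and NSC outnumbered MEF in 302 of its 350 windows. With the segment in the totals, 103 of its 341 windows with enough sites were at least 4-fold denser in NSC and 4 in MEF. Of its MEF sites 71.7% (70.5 to 73.0) overlapped NSC, against 40.2% elsewhere, while 18.1% of its NSC sites (17.6 to 18.7) overlapped MEF, against 31.0%. Of the NSC sites here without MEF overlap 15.0% lay in ESC or EpiSC, against 32.2% elsewhere. This drop was not particular to NSC. Of the MEF sites here without NSC overlap 94.2% lay in neither pluripotent list, against 72.0% elsewhere. ESC and EpiSC had 73.5 and 95.4 sites per Mb in the segment, against 236 and 192 from its end to that of chromosome 14. Whether these densities account for the lower shares was not tested. The longest NSC run within the segment, chr14:115505031-115566922, had 42 sites. The highest-scoring NSC site without MEF overlap was chr14:98270947-98271487 (34.8), and the corresponding MEF site was chr14:110416224-110416677 (15.9), with an NSC site 350 bp away.

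Beyond the segment, from 121000001 to the end of chromosome 14, the order turned round. NSC had 66.4 sites per Mb there and MEF 155, with 236 in ESC and 192 in EpiSC. NSC outnumbered MEF in 4 of the 42 windows. Of the 34 windows with enough sites 25 were at least 4-fold denser in MEF, and 8 had no NSC site. The MEF windows chr14:123600001-123700000 (34 sites), chr14:123400001-123500000 (25) and chr14:121800001-121900000 (24) named by the rule lie there, as do the 3 longest MEF runs, between 123303011 and 124463473. With this end also left out, 1067 windows remained denser in MEF and 192 in NSC.

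By whole autosome the lists were close once the segment was left out. With it, NSC were 1.38 times as dense as MEF on chromosome 14, each relative to its autosomal median. The values that follow are without it. Relative to the median of the autosomes of its own list, NSC were 1.12 times as dense as MEF on chromosome 12, 1.10 times on chromosome 18 and 1.08 times on chromosome 16. At the other end were chromosome 14 without the segment (0.855 times), chromosome 17 (0.904) and chromosome 5 (0.916). Both lists were dense on chromosomes 11 (1.20 times the median in NSC and 1.28 in MEF) and 9 (1.18 and 1.20).

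**Figure D5:**
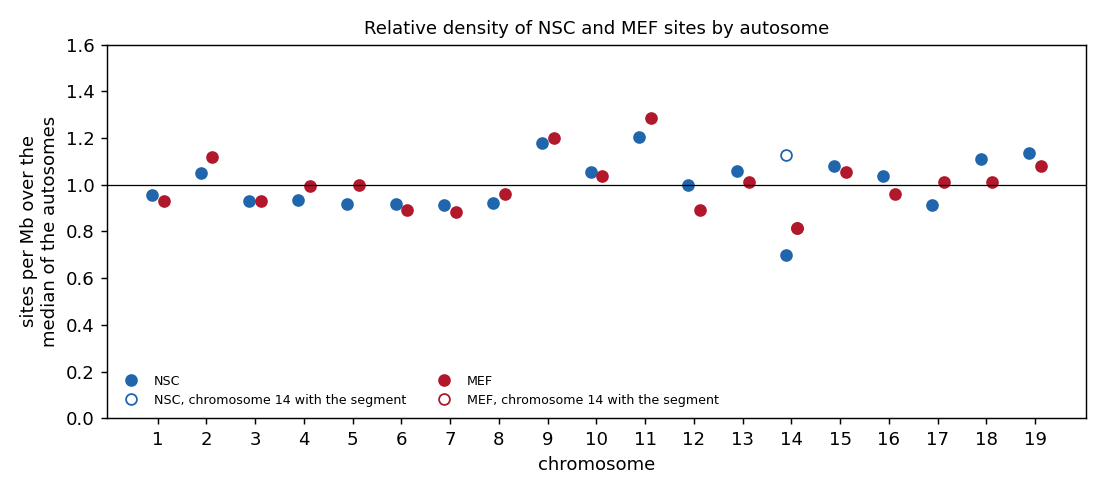
Sites per Mb on each autosome divided by the median of the autosomes, for NSC (blue) and MEF (red), without the chromosome 14 segment, and open circles for chromosome 14 with it (that of MEF lies at nearly the same height as its filled point). Both lists are highest on chromosome 11 (1.20 in NSC and 1.28 in MEF) and lowest on chromosome 14 without the segment (0.698 in NSC and 0.815 in MEF).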

How the data were processed

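FAIRE-seq was done on 10 samples in 5 groups of 2, and 1 list each of NSC, MEF, ESC and EpiSC was used; the other 6 samples were not analysed here. Per the labels' protocols, libraries had 15 PCR cycles and fragments of 150 to 400 bp. The build is mm9 and CASAVA 1.8 is named, per the submitters' processing notes. The deposited score per site and a display value were made by the authors; for the caller, its thresholds, the use of the genomic control and any pooling of replicates the sources used here give nothing. The display value was not used.

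Lists were read as 0-based intervals, and positions are printed 1-based. Sites were assigned to windows and to the segment by midpoint. Overlap meant 1 bp or more; intervals of shares are exact (Clopper-Pearson, 95%) and cover the counting of sites only, and neighbouring sites are not independent. With 1 list per cell type no test was made. The members and lists were chosen with earlier results of these data known. Named by rule were, outside the segment, the 5 highest-scoring sites of each list without overlap in the other, the 5 windows with most sites and none of the other list, and the 3 longest runs of consecutive unshared sites; then the 5 overlapping pairs and 5 windows highest in both, and the top unshared site of each list in the segment. Sharing by local density, by presence in the pluripotent lists and among sites of 2 kb or more was added on seeing the data. Gene annotation, marker lists and sequences of sites were planned but not used, because no genome or annotation of mm9 was at hand. The work was done with scipy 1.17.1, numpy 2.4.6 and pandas 2.3.3 under Python 3.11.15, and plots with matplotlib 3.10.9. Overlap counts were identical with bedtools 2.31.1, and overlap and distance were tested on simulated data.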

Additional observations from a re-analysis of the deposited data

Results flagged for a closer look

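Sites off the autosomes took no part in any comparison, and were flagged because they hold signal outside the data compared: 4219 in the NSC list and 7264 in the MEF list.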

How the results depend on the processing

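Of the values recomputed under other settings, 15 stayed within their interval, within 1.5 times for counts or equal to 2 decimals, and 37 moved. A reversal was defined for the score ratios of shared over unshared sites alone, and none of these reversed. For shares, counts and correlations no reversal could be recorded. Values here are with the chromosome 14 segment unless it is left out, and why a value moved was not tested. Cuts to fewer sites kept the highest-scoring ones, so number and score changed together. No paired analysis was possible because there was a single list for NSC and a single one for MEF, so no replicate could be left out either. Unknown depth limits any comparison of site numbers. Leaving out the end of chromosome 14, the other scalings of windows and the minimum of 30 sites were added on seeing the data.

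The share of NSC sites in MEF, 30.5%, was 31.0% without the segment as well as without all of chromosome 14 beyond 86 Mb, 23.8% with the highest-scoring 50% of each list, 32.4% at equal length, 25.9% with 50% of the shorter site required and 31.4% with sites under 200 bp apart merged. The share of MEF sites in NSC, 40.6%, was 40.2% without the segment, 40.3% without chromosome 14 beyond 86 Mb, 31.6% with the highest-scoring 50%, 34.0% at equal length and 35.0% with 50% of the shorter site. Shared bases, 15.4% of either list, were 15.6% without the segment, 12.2% with the highest-scoring 50% and 14.9% at equal length. Windows denser in NSC, 286 of 22008 (1.30%), numbered 612 of 17780 (3.44%) with the highest-scoring 50%, 788 of 36489 (2.16%) with windows of 50 kb, 96 of 11624 (0.826%) with windows of 200 kb and 547 (2.49%) without scaling. Windows denser in MEF, 1120 (5.09%), numbered 492 (4.23%) with windows of 200 kb, 647 (2.94%) without scaling and 348 of 15014 (2.32%) with 30 or more sites; the number of windows compared changes with their size and with the minimum. In each setting more windows were denser in MEF, with NSC making up from 15.0% of the called windows (without the segment) to 45.8% (without scaling). The window correlation, 0.67, was 0.68 without the segment, 0.60 with the highest-scoring 50%, 0.65 at equal length, 0.64 with windows of 50 kb and 0.69 with 200 kb. The score ratio of shared over unshared sites, 1.26 in NSC, was 1.27 without the segment, 1.11 at 250 to 350 bp and 1.29 with 50% of the shorter site; in MEF, 1.12, it was 1.04 at 250 to 350 bp. The share of unshared NSC sites in ESC or EpiSC, 31.5%, was 32.2% without the segment, 28.0% with 4 lists of equal length, 27.5% at 250 to 350 bp and 27.8% with 50% of the shorter site. For unshared MEF sites, 27.8%, these were 28.0% with equal length, 25.4% at 250 to 350 bp and 23.6% with 50% of the shorter site.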
